A study of Mus musculus with 16 samples.

Results

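Peaks of acetylated histone H3 lysine 27 (H3K27Ac) over 3 chemokine gene clusters were followed in the livers of 15 mice. The clusters were taken as fixed windows of the mm9 mouse genome, each set around a run of neighbouring chemokine genes: Ccl2-Ccl7-Ccl11-Ccl12-Ccl8 at chr11:81835000-81960000 (125 kb), Cxcl1-Cxcl2-Cxcl5 at chr5:91160000-91400000 (240 kb) and Cxcl9-Cxcl10-Cxcl11 at chr5:92740000-92810000 (70 kb). When the peaks of all animals were merged wherever they touched, 25 of 56941 merged regions fell in or across these windows, 10 in the Ccl2 window, 8 in the Cxcl1 window and 7 in the Cxcl9 window. Regions are numbered by position within each window.

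The study followed chromatin through liver inflammation into cancer in mice that lack Mdr2 (Abcb4), the canalicular phospholipid transporter whose loss makes bile toxic to the liver. H3K27Ac was profiled by ChIP-seq in the livers of 5 Mdr2-WT mice (14 to 19 months old, strain FVB.129P2 in the labels and FVB/NJ in the methods of the study), in the inflamed livers of 5 Mdr2-KO mice (strain FVB.129P2-Abcb4tm1Bor/J, 7 to 8 months old) and in 5 hepatocellular carcinoma (HCC) nodules of Mdr2-KO mice of the same strain and 14 to 19 months old. All 3 groups, the wild-type one included, had received clodronate liposomes at 50 µg per g body weight 48 h before collection, a treatment used to deplete phagocytic cells such as macrophages, which are themselves major sources of chemokines. Inflamed animals were younger than both other groups, so age and condition cannot be told apart in the comparisons that involve them, and no nodule was compared with its own surrounding liver.

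Chemokines are small secreted proteins that direct leukocytes into tissue, and their genes lie in tandem arrays that arose by duplication. Ccl2, Ccl7 and Ccl12 draw in monocytes through the receptor Ccr2, Ccl11 draws in eosinophils through Ccr3, and Ccl8 is another monocyte chemotactic protein. Cxcl1, Cxcl2 and Cxcl5 attract neutrophils through Cxcr2, whereas Cxcl9, Cxcl10 and Cxcl11 are induced by interferons and attract activated T cells and natural killer cells through Cxcr3. H3K27Ac marks promoters and enhancers in an active state, and NF-kB and interferon-activated factors are the best known inducers of these genes.

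In the RefSeq order of genes on GRCm38.p6, the Ccl2 cluster runs Ccl2, Ccl7, Ccl11, Ccl12, Ccl8, with Ccl1 beyond it. The Cxcl1 cluster runs Cxcl5, Ppbp, Pf4, Cxcl3, Cxcl15, Cxcl1, Cxcl2, with Mthfd2l beyond it. In the Cxcl9 cluster the order is Cxcl9, Cxcl10, Cxcl11, and Art3, which encodes an ADP-ribosyltransferase family member and no chemokine, overlaps that stretch. Cxcl11 is annotated there as a transcribed pseudogene. No annotation of mm9 was used here, so no peak was assigned to a gene or to an exon, intron or promoter, and the positions below are mm9 coordinates within the windows.

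Of the 10 chemokine genes, 6 were matched in the RefSeq promoter table: Ccl8, Ccl12, Cxcl1, Cxcl2, Cxcl9 and Cxcl10. Ccl2, Ccl7, Cxcl5 and Cxcl11 were not. The 250 bases before the annotated start were searched on both strands for an NF-kB-like run of 10 letters (GGGA, 2 free bases, T, 1 free base, CC) and for an interferon-response-like run of 10 letters (GAAA, 2 free bases, GAAA). The first was found in Cxcl1, Cxcl2 and Cxcl10, against 3.33% of 32851 promoters, and the second in Cxcl10, against 2.98%. The 3 promoters are shown because they place the recognition letters of the inducers named above within both Cxcl clusters. They are Cxcl1 (GRCm38.p6, plus strand, chr5:90890995-90891244), Cxcl2 (plus strand, chr5:90903649-90903898) and Cxcl10 (minus strand, chr5:92348890-92349139), printed 5′ to 3′ with the matched letters in capitals. Matches on the 2 strands overlap by 9 bases in Cxcl1 and in Cxcl2, so the capitals there run 1 base longer than the motif.
Cxcl1: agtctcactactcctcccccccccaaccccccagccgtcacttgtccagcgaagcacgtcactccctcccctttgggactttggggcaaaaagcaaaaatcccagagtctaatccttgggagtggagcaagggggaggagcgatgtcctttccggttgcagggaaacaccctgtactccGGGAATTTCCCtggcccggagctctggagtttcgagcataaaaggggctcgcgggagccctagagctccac
Cxcl2: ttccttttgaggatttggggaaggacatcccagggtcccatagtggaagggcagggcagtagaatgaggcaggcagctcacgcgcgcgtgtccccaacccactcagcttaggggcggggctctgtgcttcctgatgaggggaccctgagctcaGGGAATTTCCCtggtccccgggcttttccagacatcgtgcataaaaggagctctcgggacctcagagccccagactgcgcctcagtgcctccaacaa
Cxcl10: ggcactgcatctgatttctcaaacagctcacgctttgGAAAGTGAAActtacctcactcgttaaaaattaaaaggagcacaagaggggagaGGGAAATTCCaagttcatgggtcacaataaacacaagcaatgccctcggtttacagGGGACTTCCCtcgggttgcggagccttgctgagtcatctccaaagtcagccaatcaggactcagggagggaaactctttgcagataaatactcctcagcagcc

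The NF-kB-like letters began 71 bases before the start of Cxcl1 and 97 bases before that of Cxcl2, with the same bases in both. Cxcl10 held 2 NF-kB-like runs, which began 159 and 103 bases before the start, and the interferon-response-like run began 213 bases before it. Among the other chemokine genes of these windows, Cxcl3, Cxcl15, Pf4 and Ppbp were also searched, and Ccl11 was not matched. Cxcl3 held the same NF-kB-like bases as Cxcl1 and Cxcl2, beginning 73 bases before its start. Cxcl15, Pf4 and Ppbp held neither motif. These are matches of letters only. The motifs were chosen with the sequences in view, and no peak of mm9 was laid over these GRCm38.p6 positions.

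Each animal gave 1 list of peaks. The lists held 26375 to 30268 peaks in WT livers, 35901 to 40909 in inflamed livers and 26683 to 42736 in HCC nodules on chromosomes 1 to 19 and X, covering 109 to 148, 138 to 160 and 92.5 to 175 Mb. Read depth behind the lists is unknown, so a longer list may come from deeper sequencing as well as from more acetylation. In bulk liver, fewer cells of a type and less acetylation per cell cannot be told apart, and hepatocyte and leukocyte markers were not examined because no annotation of the build was used. A pair of lists stood apart: WT liver 5 and HCC nodule 1 were each nearest to the other of all animals (Jaccard index of covered bases 0.630), with a mean index of 0.504 and 0.411 to their own groups. The study took 2 of the 15 samples out of its principal component analysis of H3K27Ac as outliers. The figure legend does not name them, and all 15 lists were kept here. HCC nodule 3 had the longest list, and 4039 of its 36576 regions were found in no other animal. No nodule was nearest to another nodule: nodules 2, 3 and 4 were nearest to inflamed liver 5 (0.577 to 0.634) and nodule 5 to WT liver 2 (0.596). Window differences that these lists moved most are also given without them.

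The 3 windows differed in how much of them carried H3K27Ac. In WT livers peaks covered 2.65% of the Ccl2 window, 12.8% of the Cxcl1 window and 51.3% of the Cxcl9 window on average. Relative to the share of the genome under peaks in the same animal, those were ratios of 0.518 ± 0.313, 2.59 ± 0.605 and 10.5 ± 1.47 (SD, n = 5). The monocyte-chemokine window was thus below the genome share in WT liver, with all 5 animals between 0 and 0.738, and the Cxcr3-ligand window far above it, with all 5 between 8.34 and 11.9. In inflamed livers the ratio was 1.53 ± 0.123 for the Ccl2 window, 2.83 ± 0.269 for the Cxcl1 window and 8.34 ± 0.214 for the Cxcl9 window. In HCC nodules it was 1.44 ± 1.92, 2.12 ± 0.675 and 7.25 ± 2.29.

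**Figure D1:**
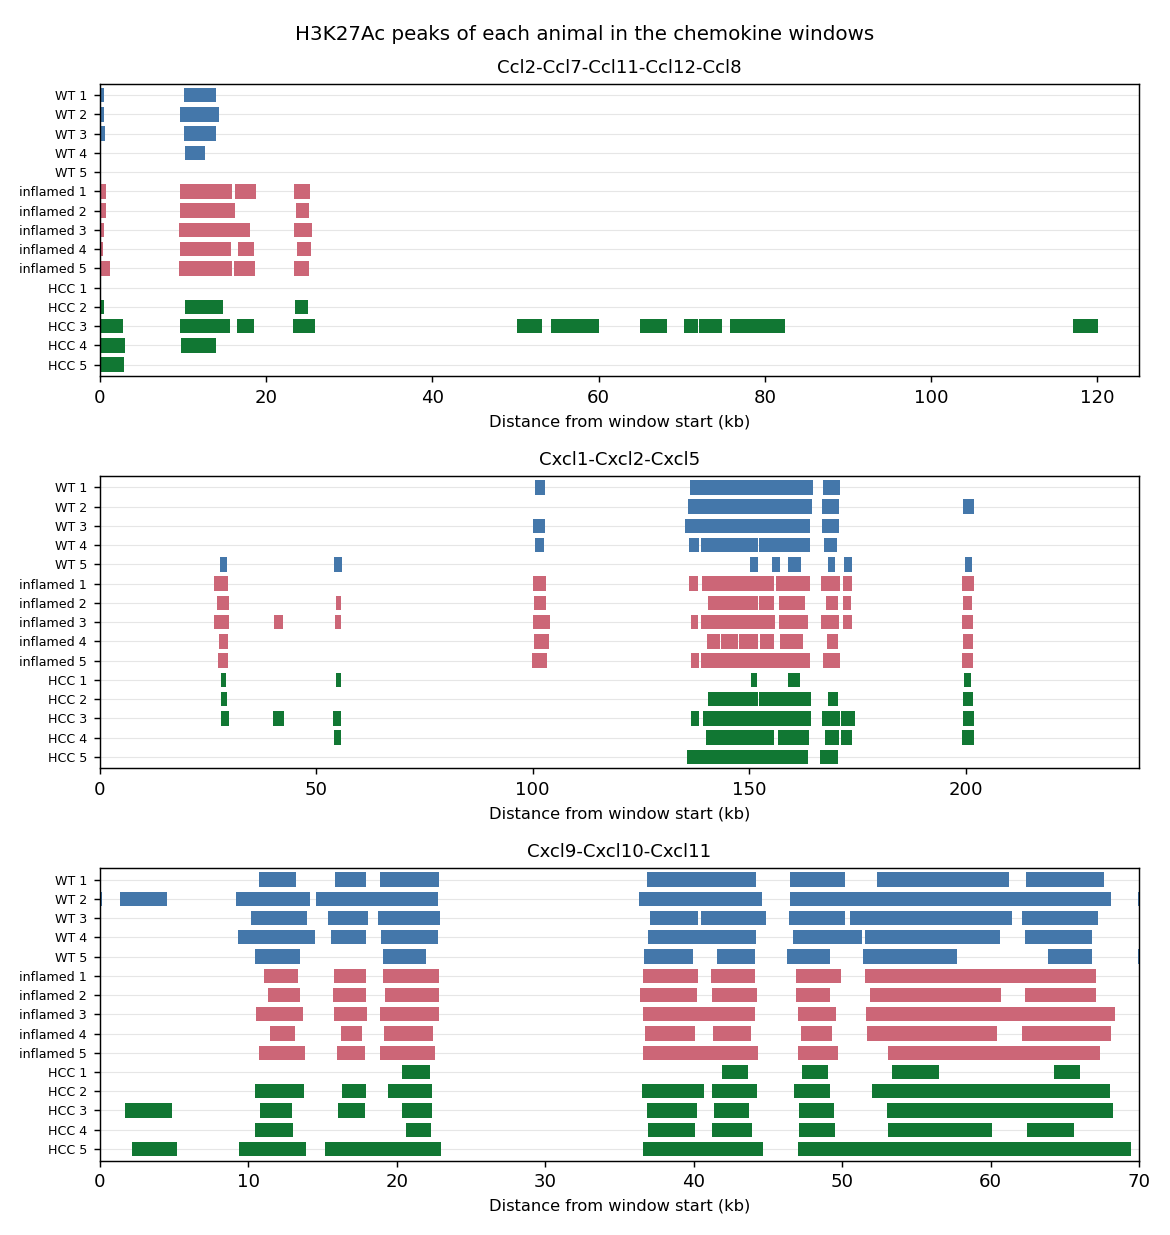
Peaks of each animal along the 3 windows, with distance from the window start in kb on the x axis and 1 row per animal on the y axis (WT blue, inflamed red, HCC green). In the Ccl2 window the peaks of inflamed livers end by 25.9 kb, and those beyond 50.1 kb belong to HCC nodule 3.

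The Ccl2 window carried more H3K27Ac in inflamed than in WT livers. Peaks covered 4363, 5179, 4542, 2469 and 0 bp in WT livers 1 to 5, and 11296, 8902, 11166, 10124 and 11895 bp in inflamed livers 1 to 5. Every inflamed liver lay above every WT liver. The means were 3311 ± 2109 bp and 10677 ± 1179 bp (SD, n = 5 each), a difference of 7366 bp or 3.22-fold. An exact two-sided permutation test gave p = 0.00794, the smallest that 5 against 5 can give, and the adjusted p was 0.0373 by Benjamini-Hochberg over 12826 genome tiles of the same 125 kb width. Such separation was common: 17.7% of tiles had every inflamed animal above every WT animal, and 21.3% passed the adjusted threshold of 0.05 in either direction. The median tile differed by 470 bp, and 88.8% of tiles had a smaller difference than the Ccl2 window.

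The number of peaks moved the same way, with 2, 2, 2, 1 and 0 peaks in WT livers and 4, 3, 3, 4 and 4 in inflamed livers, an exact permutation p of 0.00794 and an adjusted p of 0.0547. Without inflamed liver 3 the difference was 7244 bp with an adjusted p of 0.0519, and with the better-scored 50% of each list it was 7144 bp with an adjusted p of 0.0535. In both, the exact permutation p stayed at 0.00794. Without WT liver 5, which had no peak in the window, the difference was 6538 bp and the groups still did not overlap. With each list cut to its best 26375 peaks, the length of the shortest list, the difference shrank to 4178 bp (exact permutation p = 0.00794, adjusted p = 0.0475).

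**Figure D2:**
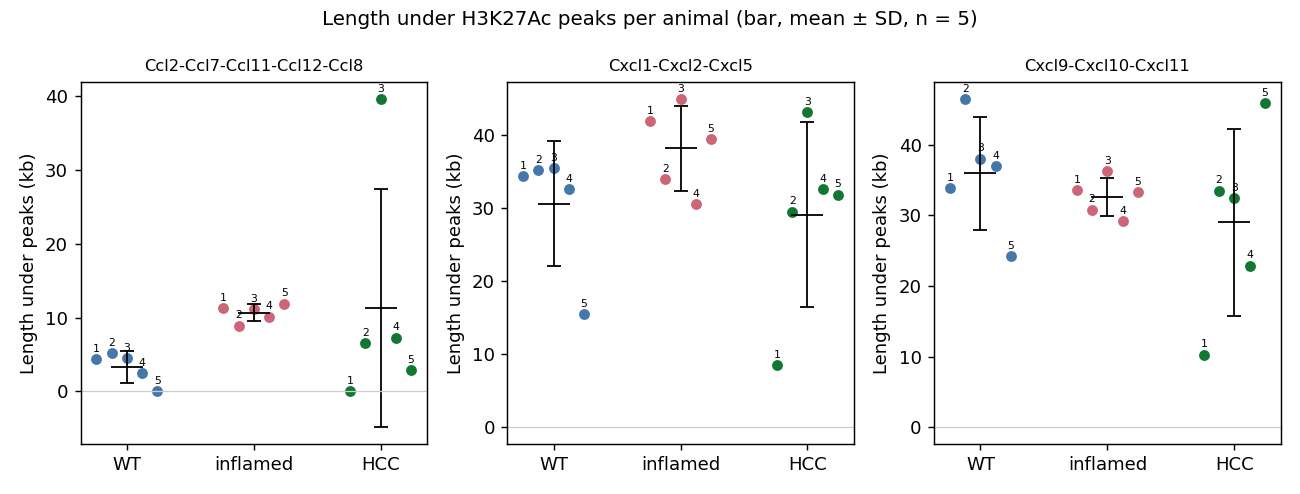
Length under H3K27Ac peaks in kb (y axis) for each animal by group (x axis), with replicate numbers beside the points and the mean ± SD (n = 5) as black bars. In the Ccl2 window all 5 inflamed livers lie above all 5 WT livers, and HCC nodule 3, at 39634 bp, lies far above the other nodules.

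The added acetylation lay in the first 25.9 kb of the window, the end that the gene order puts nearest to Ccl2. Ccl2 region 2 (chr11:81844510-81853738, 9229 bp) was occupied in 4 WT livers, all 5 inflamed livers and 3 nodules. Its covered length was 3796, 4689, 3878, 2469 and 0 bp in WT livers and 8641, 6601, 8473, 8052 and 8866 bp in inflamed livers, so that the domain was present in most WT livers and longer in every inflamed liver. Its best peak stood between the 11.3 and 32.3 percentile of the scores of its own list in the 4 WT livers and between 68.1 and 77.3 in inflamed livers. By that percentile every inflamed liver lay above every WT liver in 12.6% of all merged regions. The HCC nodules had 0, 4569, 7979, 4271 and 0 bp there, with nodule 3 inside the range of the inflamed livers and the other 4 below it.

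Ccl2 region 3 (chr11:81858299-81860878, 2580 bp) was the single region of the 25 with a peak in every inflamed liver and in no WT liver, against 4.82% of all 56941 merged regions that were gained by this rule. Its peaks were small. They covered 1893, 1526, 2203, 1686 and 1802 bp in inflamed livers, and their scores stood between the 0.965 and 34.8 percentile. Nodules 2 and 3 had a peak there, of 1543 and 2580 bp, and the other 3 nodules had none. The call was gone when each list was shortened to its best 26375 peaks, the length of the shortest list.

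Ccl2 region 1 (chr11:81817079-81838028, 20950 bp) had a peak in all 15 animals but crossed the window edge, with 3028 bp inside. Its peaks reached into the window in 12 animals. Counted over its whole length, it covered 10149 to 13490 bp in WT livers, 16937 to 17907 bp in inflamed livers and 11434 to 20773 bp in HCC nodules. Inflamed livers again lay above WT livers without overlap, whereas the nodules ranged from within the WT values, in nodule 1, to above the inflamed ones.

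Among nodules the Ccl2 window varied more than in either other group. Peaks covered 0, 6589, 39634, 7299 and 2865 bp in HCC nodules 1 to 5, averaging 11277 ± 16123 bp (SD, n = 5). Nodules differed from inflamed livers by 601 bp (exact permutation p = 1, adjusted p = 1) and from WT livers by 7967 bp (exact permutation p = 0.325, adjusted p = 0.865). The groups overlapped in both, and 1.61% and 1.54% of tiles had every nodule above every animal of the other group. In both comparisons 0 of 12826 tiles had an adjusted p under 0.05, so not passing is no trait of this window. The differences of the nodules rested on nodule 3. Without it the 4 other nodules ranged from 0 to 7299 bp, all below the lowest inflamed liver. The difference from inflamed livers was then -6488 bp (exact permutation p = 0.00794, adjusted p = 0.0755) and that from WT livers 878 bp. All 5 nodules lay below every inflamed liver in 5.37% of tiles. The share for these 4 nodules, a rule more easily met, is not given here.

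HCC nodule 3 alone had peaks over the rest of the window, towards Ccl12 and Ccl8 in the gene order. Its 7 regions there, Ccl2 regions 4 to 10, lay between chr11:81885141 and 81955108 and were 1616 to 6560 bp long. Their best scores stood between the 7.59 and 73.9 percentile of that list, the highest in Ccl2 region 9 (chr11:81910860-81917419). The 14 other animals had no peak in any of the 7. Of 12768 tiles of this width that held a region, 25 (0.196%) held as many regions that were private to 1 animal.

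The Cxcl1 window, of the neutrophil chemokines, held a broad merged region with peaks in every animal, from 1 to 5 peaks each. Cxcl1 region 5 (chr5:91295186-91324608, 29423 bp) covered 28292, 28737, 28907, 27380 and 6511 bp in WT livers, 26527, 20791, 25517, 20139 and 27147 bp in inflamed livers, and 4262, 23601, 26965, 22585 and 27772 bp in HCC nodules. WT liver 5 and HCC nodule 1 stood far below the rest. Apart from them, every WT liver (at least 27380 bp) lay above every inflamed liver (at most 27147 bp), and the nodules overlapped both groups. That order appears only with WT liver 5 set aside after its value was seen, and the share of all regions that show it is not given here. The best peak there was at the 87.5 percentile of its list in WT liver 5 and at 87.1 in HCC nodule 1, while the other WT livers ranged from 76.4 to 91.6 and the other nodules from 49.2 to 99.7. In WT livers 1, 4 and 5 and in HCC nodule 1 that peak had the same score, 3100, at which many peaks tie. Percentiles among these animals therefore do not compare strength.

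Over the whole Cxcl1 window, peaks covered 34379, 35203, 35446, 32590 and 15432 bp in WT livers, 41893, 33939, 44952, 30517 and 39427 bp in inflamed livers, and 8456, 29503, 43115, 32615 and 31829 bp in HCC nodules. The means were 30610 ± 8558, 38146 ± 5872 and 29104 ± 12674 bp (SD, n = 5 each), and the 3 groups overlapped. Inflamed livers exceeded WT livers by 7536 bp (exact permutation p = 0.127, adjusted p = 0.262 over 7784 tiles of 240 kb, of which 19.3% had every inflamed animal above every WT animal). HCC nodules differed from inflamed livers by -9042 bp (exact permutation p = 0.183, adjusted p = 0.579) and from WT livers by -1506 bp (exact permutation p = 0.794, adjusted p = 1). In both comparisons of nodules, 0 of 7784 tiles had an adjusted p under 0.05. None of the 3 differences in covered length passed the test. Without WT liver 5 and HCC nodule 1 they were 3741, -3880 and -139 bp. Leaving out HCC nodule 1 alone turned the difference between nodules and WT livers to 3656 bp, and without WT liver 5 alone it was -5301 bp. Without HCC nodule 3, nodules and inflamed livers differed by -12545 bp (exact permutation p = 0.0397, adjusted p = 0.192).

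Other measures of the Cxcl1 window gave smaller exact p-values that did not pass adjustment. WT livers had 4, 3, 3, 5 and 8 peaks and inflamed livers 8, 10, 10, 9 and 6, a difference of 4 peaks (exact permutation p = 0.0238, adjusted p = 0.0927). The ratio to the genome share differed between nodules and inflamed livers by -0.717 (exact permutation p = 0.0397, adjusted p = 0.237). With the better-scored 50% of each list, nodules and inflamed livers differed by -14215 bp (exact permutation p = 0.0317, adjusted p = 0.418).

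Smaller Cxcl1 regions differed in which animals had a peak. Cxcl1 region 4 (chr5:91259912-91263979, 4068 bp) was the single region with a peak in every inflamed liver and in no HCC nodule, against 1.28% of all merged regions that were lost by this rule. It covered 3143, 2904, 3914, 3393 and 3405 bp in inflamed livers, with best scores between the 46.2 and 69.3 percentile. WT livers 1, 3 and 4 had 2281, 2765 and 2105 bp there, at the 5.23 to 21.7 percentile, and WT livers 2 and 5 had none. The region was thus weak or absent in WT livers, present in all inflamed livers and absent from all nodules, and the call did not hold when only the better-scored 50% of each list was used.

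Cxcl1 region 1 (chr5:91186384-91189859, 3476 bp) covered 3267, 2865, 3471, 2060 and 2441 bp in inflamed livers and, among WT livers, 1787 bp in WT liver 5 alone. Nodules 1, 2 and 3 had 1208, 1319 and 1948 bp there, all below the inflamed livers, and nodules 4 and 5 had none. It counted as gained in inflammation without WT liver 5, for which the share of all merged regions is not given here. It also counted under a looser rule that asked for 4 or more inflamed livers and no more than 1 WT liver, which 2 of the 25 regions and 12.4% of all merged regions met. Cxcl1 region 8 (chr5:91359176-91361955, 2780 bp), nearest the far end of the window, was occupied in 2 WT livers, in all 5 inflamed livers (1905 to 2601 bp) and in 4 nodules. Cxcl1 region 6 (chr5:91326421-91331063) was missing from HCC nodule 1 alone. Cxcl1 regions 2, 3 and 7 were found in 2, 6 and 6 animals.

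**Figure D3:**
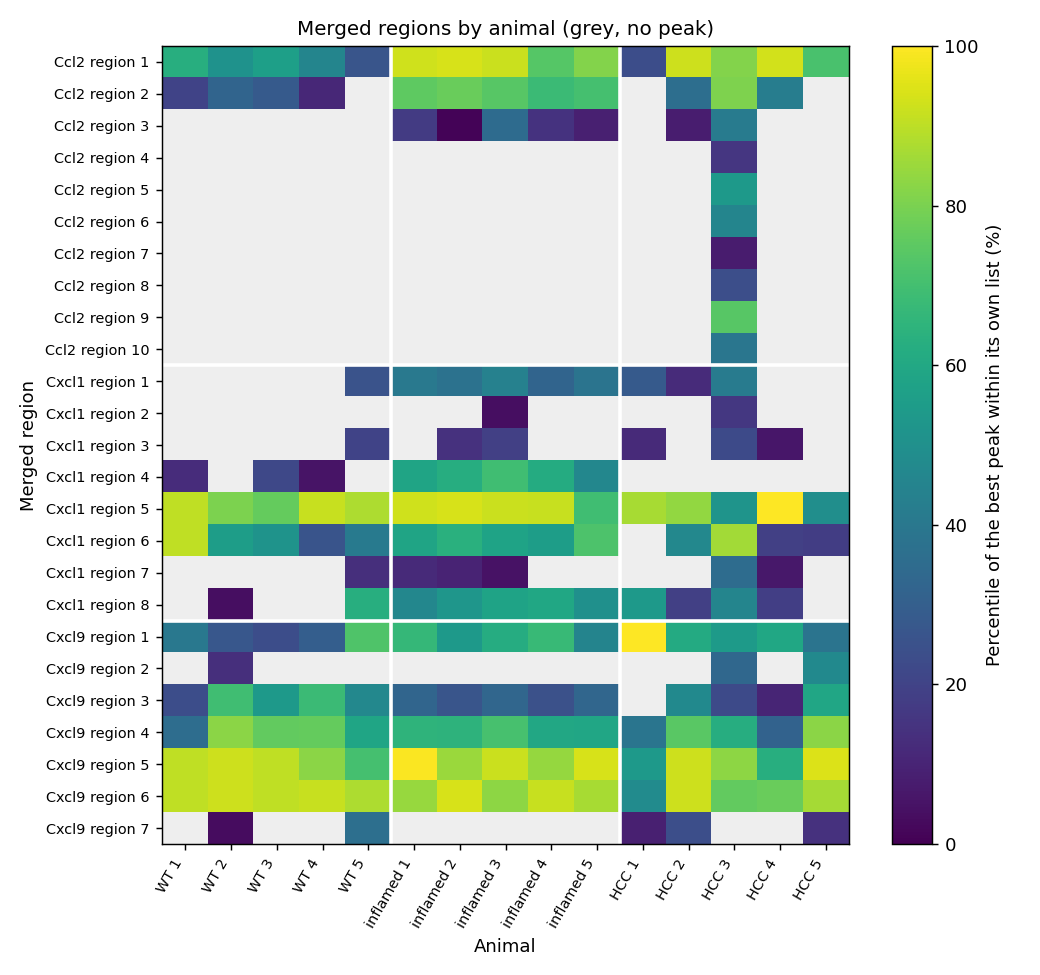
Percentile of the best peak within its own animal's list (colour, %) for the 25 merged regions (y axis) in the 15 animals (x axis), with grey where an animal had no peak. Ccl2 region 2 is at the 68.1 to 77.3 percentile in inflamed livers and at or below 32.3 in WT livers, while Cxcl9 region 6 is at or above 83.2 in every WT and inflamed liver.

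The Cxcl9 window, of the interferon-induced chemokines, was acetylated over much of its length in every group, and no group difference in covered length passed the test. Peaks covered 33855, 46495, 38011, 36996 and 24234 bp of the 70 kb in WT livers, 33514, 30795, 36284, 29178 and 33277 bp in inflamed livers, and 10288, 33509, 32448, 22891 and 45839 bp in HCC nodules. The means were 35918 ± 8034, 32610 ± 2731 and 28995 ± 13259 bp (SD, n = 5 each). The inflamed livers lay close together within the range of the WT livers, and the nodules ranged beyond both groups at the low end.

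Inflamed and WT livers differed in the Cxcl9 window by -3309 bp (exact permutation p = 0.429, adjusted p = 0.676 over 19606 tiles of 70 kb, of which 3.9% had every inflamed animal below every WT animal). HCC nodules differed from inflamed livers by -3615 bp (exact permutation p = 0.619, adjusted p = 0.981) and from WT livers by -6923 bp (exact permutation p = 0.325, adjusted p = 0.899). In both comparisons of nodules, 0 of 19606 tiles had an adjusted p under 0.05. Single animals moved the differences of the window. The difference between inflamed and WT livers was -664 bp without WT liver 2 and -6230 bp without WT liver 5 (exact permutation p = 0.0397, adjusted p = 0.104). Without HCC nodule 1, nodules and inflamed livers differed by 1062 bp in the other direction, and nodules and WT livers by -2246 bp. Without HCC nodule 5, the animal with the most covered bases among the nodules, those 2 differences were -7826 and -11134 bp.

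Set against the share of each animal's genome under peaks, the Cxcl9 window ratio differed between inflamed and WT livers by -2.12 (exact permutation p = 0.0317, adjusted p = 0.0997), between HCC nodules and WT livers by -3.21 (exact permutation p = 0.0476, adjusted p = 0.387) and between HCC nodules and inflamed livers by -1.09 (exact permutation p = 0.397, adjusted p = 0.806). None passed adjustment. The WT livers ranged from 8.34 to 11.9, the inflamed livers from 7.98 to 8.55 and the nodules from 4.19 to 10.2.

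Of the Cxcl9 regions, 4 had a peak in all 15 animals when counted over their whole length. The longest was Cxcl9 region 6 (chr5:92786265-92809457, 23193 bp), which covered 12354 to 21662 bp in WT livers, 15903 to 19345 bp in inflamed livers and 6668 to 22397 bp in HCC nodules. Cxcl9 region 5 (chr5:92776311-92784856, 8546 bp) covered 5876 to 8274, 5949 to 7702 and 1734 to 8114 bp, and Cxcl9 region 4 (chr5:92754582-92763004, 8423 bp) covered 2906 to 8236, 4777 to 6180 and 1731 to 7801 bp. In all 3 regions the groups overlapped and nodules spread the most. The fourth, Cxcl9 region 1 (chr5:92737446-92740162), had 162 bp inside the window, and its peaks reached inside in 4 of the 15 animals.

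The other Cxcl9 regions were less constant. Cxcl9 region 3 (chr5:92749179-92754525) was missing from HCC nodule 1 alone. Its best scores stood between the 23.7 and 69.3 percentile in WT livers and between 24.9 and 32.9 in inflamed livers. Cxcl9 regions 2 and 7 had no peak in any inflamed liver, and were found in 1 and 2 WT livers and in 2 and 3 nodules. Cxcl9 region 7 crossed the window edge, and its peaks reached inside in 2 WT livers and 1 nodule. None of the 7 regions was gained or lost by the rule of every animal against none.

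**Figure D4:**
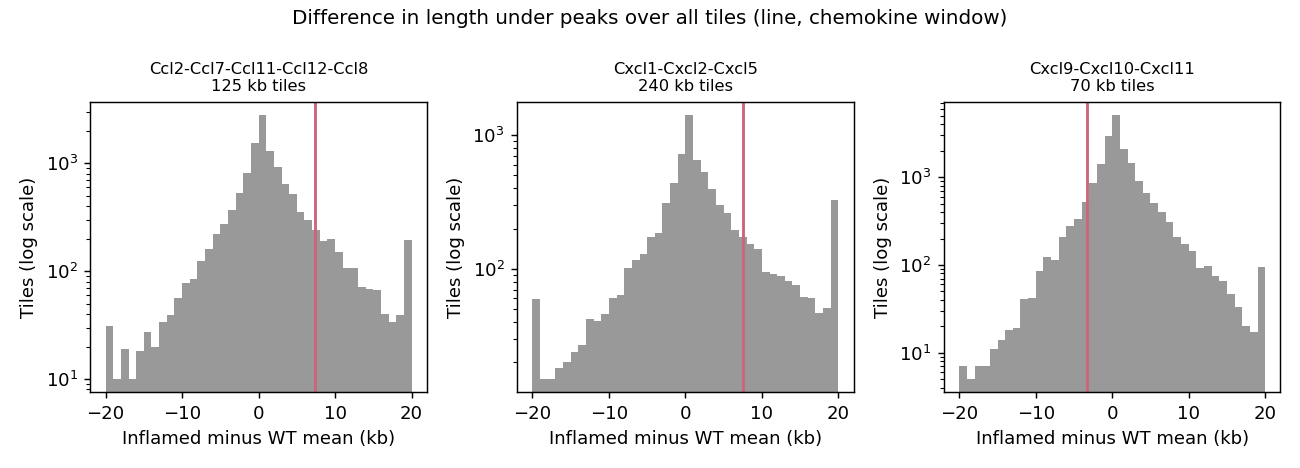
Number of genome tiles (y axis, log scale) by the difference between the inflamed and WT means of length under peaks in kb (x axis), for tiles of 125, 240 and 70 kb, with the chemokine window as a red line and the end bars holding all tiles at or beyond 19 kb above or below 0. The Ccl2 and Cxcl1 windows lie to the right of the median tile and the Cxcl9 window to its left.

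Across the 25 regions, 6 (24%) had a peak in all 15 animals, against 21.3% of all merged regions, and 7 (28%) in 1 animal, against 22.9%. Regions were counted over their whole length. Ccl2 region 1 and Cxcl9 region 1 are among the 6, but their peaks reached inside the windows in 12 and 4 animals. The median width of the 25 regions was 3476 bp, against 3510 bp. A peak in every animal of the group was found in 8 regions for WT livers, 13 for inflamed livers and 6 for HCC nodules, and a peak in at least 1 animal in 16, 16 and 24. Of those 24, 7 were found in HCC nodule 3 alone. The shares of all merged regions for these counts are not given here, and inflamed livers had longer lists than WT livers, so the counts are no trait of the windows. Covered length was higher in every inflamed than in every WT liver in 5 of 25 regions (Ccl2 regions 1, 2 and 3 and Cxcl1 regions 1 and 4), against 9.43% of all merged regions, and lower in none, against 3.08%. It was lower in every nodule than in every inflamed liver in 2 of 25 (Cxcl1 regions 1 and 4), against 3.61%, and higher in none, against 0.862%. Nodules and WT livers overlapped in all 25, against 0.694% of merged regions with every nodule higher and 0.934% with every nodule lower. By presence, none of the 25 was lost in inflammation (0.399% of all merged regions were), gained from inflamed liver to nodule (0.105%), or gained (0.22%) or lost (0.146%) between WT livers and nodules.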

How the data were processed

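H3K27Ac ChIP-seq of 15 mouse livers or nodules (5 per group) was analysed from the peak lists the authors deposited, 1 BED list per animal, with start, end and a score per peak. The submitters' processing notes name Bowtie 0.12.7, MACS 1.4 and mm9. The deposited score runs from 50 to 3233.06 with many values tied at 3100, and its scale is not given in the sources used here, so it served only to rank peaks within a list (ties share a mean rank). The lists hold no read counts. An IgG control was not analysed here.

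The value per animal was the number of bases of a window under peaks on chromosomes 1 to 19 and X. BED starts were shifted by 1 for printing. Peaks of all animals that overlapped or adjoined were merged into regions. A region was occupied by an overlap of at least 1 bp, gained when occupied in 5 of 5 animals of the first group and 0 of 5 of the second, and lost in the opposite case. Groups were compared by an exact two-sided permutation test over the 252 splits (Python 3.11.15, NumPy 2.4.6, SciPy 1.17.1), adjusted by Benjamini-Hochberg over all genome tiles of the window's width. The code was tried on shuffled tile values with planted differences far larger than any reported here. That trial checked unadjusted p-values only and does not show what the test can detect at the reported differences. WT and inflamed livers each enter 2 comparisons, which therefore share animals. Animals are numbered in the order of deposit.

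The windows, genes and motifs were chosen with earlier results of these data known. The genes named are the 10 members and the other genes of the same windows by gene order; regions were described in full where gained, lost or present in all animals, and Ccl2 region 2 and Cxcl1 regions 1, 6 and 8, Cxcl9 region 3 and Ccl2 region 9 were chosen after their values were seen. Comparison of covered length by region, tiles started at another position, and region counts without WT liver 5 and HCC nodule 1 together were added after seeing the data. Promoters are from RefSeq (GRCm38.p6) and were not placed on mm9.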

Additional observations from a re-analysis of the deposited data

Results flagged for a closer look

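In 45 sets of 5 animals, 5 values lay apart from the rest of their group by Dixon's criterion, which chance meets in about 1 in 20 groups. In the Ccl2 window HCC nodule 3 had 39634 bp under peaks and 11 peaks, the next nodules having 7299 bp and 3 peaks. In the Cxcl1 window WT liver 5 had 15432 bp under peaks, the next WT liver having 32590 bp. The same animal had 6511 bp in Cxcl1 region 5, and HCC nodule 1 had 4262 bp there, against at least 27380 bp in the other WT livers and at least 22585 bp in the other nodules. WT liver 5 and HCC nodule 1 are the pair whose lists stood apart over the whole genome, and nodule 3 has the longest list. Their part in these values was not tested.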

How the results depend on the processing

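Over all alternatives, 150 of the recomputed differences did not reverse and kept their side of the threshold, 3 no longer passed and 9 changed direction. The 150 are not separate checks. Shifted tiles leave the differences themselves unchanged, and leaving out WT liver 5 and HCC nodule 1 together repeats single-animal values in comparisons with inflamed livers. They also hold a difference of 0, in number of peaks between inflamed and WT livers in the Cxcl9 window. Only inflamed against WT in the Ccl2 window had passed, so for the other differences keeping their side means that they again did not pass. Of the recomputed region counts, 91 stayed within 1.5 times the reported count and 5 did not, and most of the reported counts were 0. Inflamed against WT in the Ccl2 window did not pass with the better-scored 50% of each list (7144 bp), with the number of peaks (2.2 peaks more) or without inflamed liver 3 (7244 bp). In each the exact permutation p was 0.00794. With lists of equal length it passed, but the difference was smaller, at 4178 bp. HCC against inflamed in that window turned to -1986 bp with the better-scored 50%, -515 bp with peaks wholly inside, -0.2 in number of peaks, -0.0901 in the ratio to the genome share and -6488 bp without HCC nodule 3. HCC against WT in the Cxcl1 window turned to 1.4 more peaks and, without HCC nodule 1, to 3656 bp. HCC against inflamed in the Cxcl9 window turned to 1062 bp without HCC nodule 1, whether or not WT liver 5 was also left out. Apart from leaving out animals, the cause of these changes was not tested.

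Regions gained in inflammation were 1 of 25 as reported, 0 with lists of equal length, and 2 with the rule of at least 4 of 5 against at most 1 of 5 (12.4% of all regions), without WT liver 5, and without WT liver 5 and HCC nodule 1 together; with the better-scored 50% the count was again 1. The shares of all merged regions gained with lists of equal length, with the better-scored 50% or without WT liver 5 are not given here. By scores above the 50 percentile, Ccl2 region 2 was present in 5 of 5 inflamed livers and 0 of 5 WT livers, and Ccl2 region 3 in 0 of 5 of either. By percentile of the best score, every inflamed liver lay above every WT liver in 5 of 25 regions, against 12.6% of all merged regions. Regions lost from inflamed livers to nodules fell from 1 to 0 with the better-scored 50%.

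Leaving out each animal in turn gave 6538 to 7833 bp (inflamed against WT), -6488 to 3420 bp (HCC against inflamed) and 878 to 10786 bp (HCC against WT) in the Ccl2 window. The ranges were 3741 to 9443, -12545 to -3880 and -5301 to 3656 bp in the Cxcl1 window, and -6230 to -664, -7826 to 1062 and -11134 to -2246 bp in the Cxcl9 window. Region counts ranged from 1 to 2 for gains in inflammation, stayed at 1 for losses from inflamed livers to nodules and at 0 for the rest. No paired analysis was possible because the groups differ in genotype or age and so hold different animals. The labels give no replicate numbers, and those used here follow the order of deposit only. Unknown read depth limits every comparison of list lengths.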
